A study of Mus musculus with 6 samples.

Results

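The mitochondrial respiratory chain and ATP synthase were described from 95 genes chosen by name, in RNA sequencing data of mouse hepatic stellate cells in primary isolation. Of 22966 genes in the count table, 82 nuclear genes had symbols of complex I to V subunits (Nduf, Sdh, Uqcr, Cyc1, Cox4 to Cox8 and Atp5), and 13 were the protein genes of the mitochondrial genome. The choice used symbols only, though it was made with earlier results of these data known. Nuclear members were assigned to complexes by symbol prefix alone. Complex I had 37 nuclear and 7 mitochondrial members, complex II had 4 nuclear members, and complex III had 9 nuclear and 1 mitochondrial. Complex IV had 15 nuclear and 3 mitochondrial members, and complex V had 17 nuclear and 2 mitochondrial. The libraries were 3 titled flox and 3 titled Cre, all from mice given carbon tetrachloride (CCl4), a liver toxin, and all with the same genotype entry, BucheHep, so only the titles set the groups apart. By the series text, butyrylcholinesterase (written Buche there, gene symbol Bche) was knocked out in hepatocytes, and the title ties this enzyme to stellate cell activation through muscarinic signaling. The labels used here give no promoter for the Cre, no age, no strain, no cell sort and no statement that libraries came from separate animals. The p-values therefore measure the spread between these libraries, which may be technical.

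The respiratory chain carries electrons from NADH and succinate to oxygen. Complex I takes them from NADH, complex II (succinate dehydrogenase) from succinate, complex III passes them to cytochrome c and complex IV to oxygen, while complex V makes ATP from the proton gradient. Apart from complex II, which is wholly nuclear, each complex combines subunits encoded in the nucleus with subunits encoded and made inside the mitochondrion. Mitochondrial genes are read as long transcripts from each strand and then cut into single messages, whereas each nuclear subunit has its own promoter. Quiescent stellate cells store retinoids and turn into collagen-producing myofibroblasts after liver injury.

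Library totals were 37273142 to 41006722 counts. Stellate markers were present in every library, apart from Gfap, which had 0 to 4 counts. Their summed CPM (counts scaled to the library size) was 1145 to 2950 in flox and 2075 to 3432 in Cre. Of 15 tested, 2 (Dcn and Hand2) passed the test described below as higher in Cre and 0 as lower. Macrophage markers moved with the groups: their summed CPM was 19478, 24771 and 8616 in the flox libraries, in the order of replicates 1 to 3, and 2713, 2637 and 3203 in the Cre libraries. Of 18 such markers, 17 passed the test described below as lower in Cre, 0 as higher, and none was at 0 counts in any library. All 6 cycling-cell markers passed as higher in Cre (summed CPM 134, 101 and 79.9 in flox and 479, 425 and 199.6 in Cre). Mesothelial markers were high in Cre 1 and 2 only, at 323, 237 and 326 CPM in flox and 800, 884 and 260 in Cre, with 0 of 9 past the threshold, 5 at an unadjusted edgeR p below 0.05, all higher, and none at 0 counts. Hepatocyte markers summed to 371, 578 and 835 CPM in flox and 435, 201 and 538 in Cre. Of 12, 1 (Fabp1) was called lower, and 4 had an unadjusted edgeR p below 0.05, all lower. By sign 11 of 12 were negative (median log2 fold change -1.32). Liver endothelial markers summed to 1825, 1433 and 4565 CPM in flox and 2337, 3889 and 2672 in Cre. Of these 10 markers 1, Clec4g, was called lower. T, NK and B cell markers summed to 19.0, 23.3 and 5.52 CPM in flox and 5.21, 3.60 and 9.96 in Cre. Of 8 tested, 0 passed and 7 were negative by sign (median log2 fold change -1.15). Flox 3 stood apart from flox 1 and 2, with a macrophage sum between theirs and those of Cre. It also had the highest endothelial sum and the lowest stellate sum (1145 CPM) of all libraries. Fewer cells of a type and less RNA per cell cannot be told apart in such bulk libraries. Bche itself had 17, 6 and 21 counts in flox and 15, 8 and 2 in Cre, and a deletion in hepatocytes is not checked by stellate cell RNA.

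Several mitochondrial genes have near-identical copies in the nuclear genome, which bears on how their counts can be read. On the minus strand of chromosome 1 (GRCm38, GENCODE M21 annotation), 7 adjacent pseudogenes copy the stretch of the mitochondrial genome from ND4 back to COX1. The copies of COX2 (Gm28661, 681 bases aligned), COX3 (Gm28437, 783), ATP6 (Gm10925, 678), ND4L (Gm10222, 294) and the first 876 bases of ND4 (Gm28439) had 0 mismatches. The first 120 bases of COX2, a copper-binding subunit of complex IV, are shown to make that identity visible.
COX2 (chrM:7013-7132, plus strand): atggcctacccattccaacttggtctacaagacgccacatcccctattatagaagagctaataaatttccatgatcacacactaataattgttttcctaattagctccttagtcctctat
Gm28661 (chr1:24615446-24615565, minus strand): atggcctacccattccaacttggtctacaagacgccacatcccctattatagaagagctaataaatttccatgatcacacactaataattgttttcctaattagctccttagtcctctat

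The copy of COX1, the catalytic subunit of complex IV, is partial. Gm29216 covers bases 1054 to 1545 of the gene (492 bases) with 6 mismatches, all near its start. In the pair below capitals mark the mismatched bases, and positions count from 1 at the first base of COX1: T1056A, C1057T, A1059G, A1060G, C1062A and A1066T, with the mitochondrial base first.
COX1 (chrM:6381-6500, plus strand): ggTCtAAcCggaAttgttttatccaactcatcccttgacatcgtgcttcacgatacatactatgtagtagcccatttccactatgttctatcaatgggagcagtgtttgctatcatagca
Gm29216 (chr1:24616078-24616197, minus strand): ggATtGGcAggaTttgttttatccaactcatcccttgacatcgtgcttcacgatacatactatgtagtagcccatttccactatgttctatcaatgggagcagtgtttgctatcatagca

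ND3, a small complex I subunit, differs from Gm28438 at 1 of 345 aligned bases, T3C, again in capitals.
ND3 (chrM:9459-9578, plus strand): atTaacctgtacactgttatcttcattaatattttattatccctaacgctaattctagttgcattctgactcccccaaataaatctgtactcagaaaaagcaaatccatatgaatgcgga
Gm28438 (chr1:24613000-24613119, minus strand): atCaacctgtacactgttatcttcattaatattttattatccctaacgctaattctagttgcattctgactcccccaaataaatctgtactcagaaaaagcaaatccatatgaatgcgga

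To put a number on this, every 50-base window of each member's transcript was looked up in all other annotated transcripts. All windows of COX2 were shared (100%), with 99.9% of COX3, 99.5% of ATP6, 98.8% of ND4L and 98.0% of ND3. ND4 had 62.2% shared windows, COX1 51.1%, ND2 8.19% and ND5 7.61%. ND1, CYTB, ND6 and ATP8 had 0% shared with annotated transcripts. Unannotated sequence was not searched, and ATP8 starts between COX2 and ATP6, inside the stretch copied on chromosome 1. For ND1, the complex I subunit on which the comparison below turns, the first 60 bases (chrM:2751-2810, plus strand) are given as an example of sequence with no other transcript match.
ND1: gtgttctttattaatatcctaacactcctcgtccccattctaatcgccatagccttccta

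The abundant mitochondrial genes were those with fewer shared windows, apart from ND6, which was low with none. ATP8 was also low with none in annotated transcripts, but an unannotated copy of it was not searched for. FPKM, the deposited level per transcript length and library size, over the 6 libraries reached 2211 to 2880 for COX1, 661 to 1636 for ND1 and 344 to 1331 for ND2. CYTB, the mitochondrial subunit of complex III, spanned 417 to 830 FPKM, ND5 312 to 516 and ND4 194 to 337. COX1 lay above all others in every library, whereas the ranges of ND1 and ND2, of ND2 and CYTB, of CYTB and ND5, and of ND5 and ND4 overlapped their neighbour's. The 5 genes with at least 97% shared windows were far lower, at 5.13 to 11.1 FPKM for COX2, 3.61 to 7.80 for COX3, 2.65 to 8.39 for ATP6, 2.16 to 8.73 for ND3 and 1.48 to 5.39 for ND4L. ND6, the only protein gene on the other mitochondrial strand, was also low (2.90 to 11.9 FPKM) with 0% shared windows. ATP8 had 1, 1 and 0 counts in flox and 3, 3 and 2 in Cre. The handling of reads that match several places is not known from the labels, and the part of the nuclear copies in these levels was not tested.

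**Figure D1:**
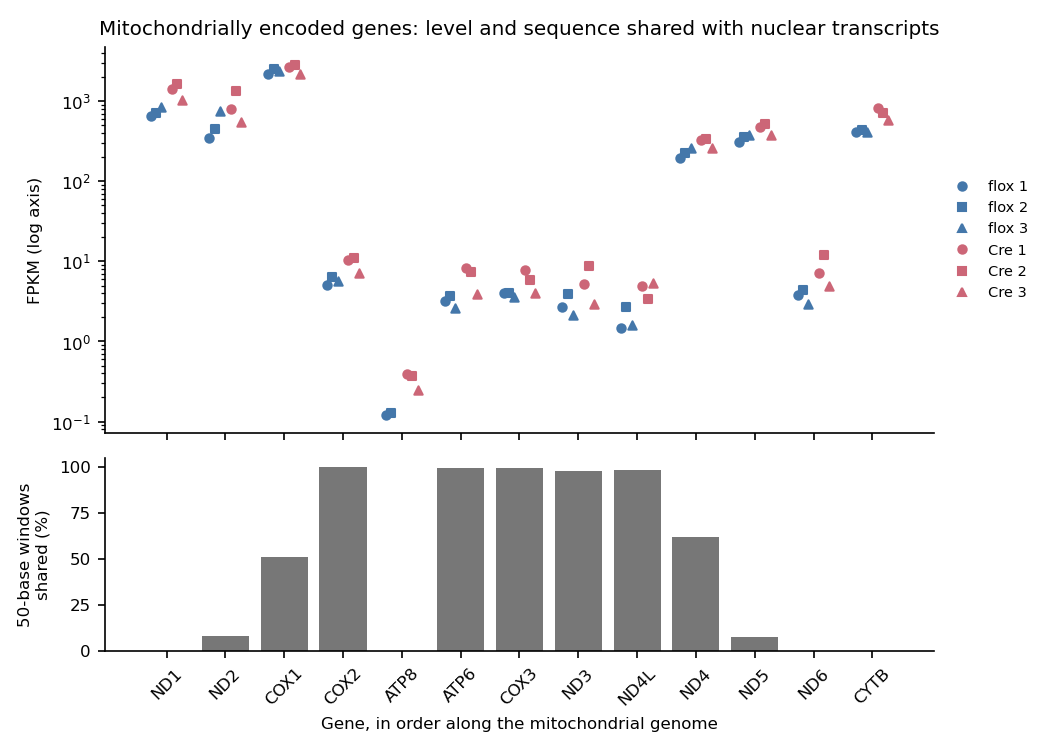
FPKM of the 13 mitochondrial protein genes in each library (upper panel, log axis, blue flox and red Cre, circle, square and triangle for replicates 1, 2 and 3) and the percent of their 50-base windows found in another transcript (lower panel), in genome order. COX1 is highest at 2211 to 2880 FPKM, the genes with 98.0% to 100% shared windows lie below 12 FPKM, and the 0 of ATP8 in flox 3 is not drawn.

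Among mitochondrial genes only ND1 passed the test between groups, and it was higher in Cre. In TMM-normalised CPM, which scale each library by its composition, ND1 was 681, 755 and 807 in the flox libraries and 1266, 1480 and 969.5 in the Cre libraries. Every Cre library lay above every flox library. On the log2 scale Cre exceeded flox by 0.73, with a standard error of 0.18 (3 libraries per group; edgeR quasi-likelihood test, two-sided, Benjamini-Hochberg adjusted p = 0.0430), and later values follow this form. The threshold was an adjusted p of 0.05 over 14795 genes tested, of which 15.3% passed: 6.35% as higher and 8.94% as lower in Cre. So 1 of 12 tested mitochondrial genes passed, a share near that background. ATP8 was removed as too low. The ND1 call was lost in limma-voom (adjusted p = 0.0514) and when flox 1, flox 2, Cre 1 or Cre 2 was left out (0.122 to 0.150). In each of those 4 fits 0 genes of the whole table passed.

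CYTB stood just beyond the threshold. Its CPM was 514, 558 and 475 in flox and 885, 775 and 640.0 in Cre, again without overlap. The log2 fold change was 0.57 ± 0.15 (edgeR adjusted p = 0.0505). ND4L, which carries 98.8% shared windows, was the other tested gene without overlap, at 18, 31 and 19 counts in flox and 55, 39 and 63 in Cre (1.07 ± 0.46, adjusted p = 0.149). Groups without overlap were found in 39.6% of all genes, 19.6% with Cre above flox and 20.0% below, against 3 of 12 above and 0 of 12 below here. CYTB passed in 9 of the alternative fits, among them DESeq2 (adjusted p = 0.00492) and library totals (0.0293).

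The remaining mitochondrial subunits of complex I showed positive log2 fold changes that did not pass. ND2 was the most variable of the abundant genes, with 385, 521 and 768.5 CPM in flox and 781, 1306 and 556 in Cre. Flox 3 and Cre 3 crossed the other group's range (0.66 ± 0.37, edgeR adjusted p = 0.256). ND5 had 612, 716.5 and 691 CPM in flox and 817, 890.0 and 668 in Cre, with Cre 3 inside the flox range (0.23 ± 0.15, adjusted p = 0.300). ND4 was similar in pattern, with 289, 349 and 355 CPM in flox and 428, 439 and 349 in Cre (0.29 ± 0.14, adjusted p = 0.194). ND6 gave 0.95 ± 0.41 (adjusted p = 0.151) and ND3 0.75 ± 0.52 (adjusted p = 0.338), each with overlapping groups.

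COX1 was the exception in sign. It had 3679, 4347 and 3633 CPM in flox and 3894, 4205 and 3305 in Cre, fully intermixed (-0.03 ± 0.16, edgeR adjusted p = 0.909), and its sign turned under other scalings. The other mitochondrial subunits of complex IV gave 0.57 ± 0.25 for COX2 (adjusted p = 0.159) and 0.43 ± 0.31 for COX3 (adjusted p = 0.353). ATP6, the proton-channel subunit of ATP synthase, gave 0.88 ± 0.37 (adjusted p = 0.143). In all, 11 of 12 log2 fold changes were positive, against 51.0% of all genes, with a median of 0.62 against 0.012. Unadjusted edgeR p was below 0.05 for 3 (ND1, CYTB and ATP6), all higher, against 34.8% of all genes in either direction and 16.4% as higher. Without the 5 genes of at least 97% shared windows, a split chosen after the data were seen, 1 of 7 passed and the median was 0.57.

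**Figure D2:**
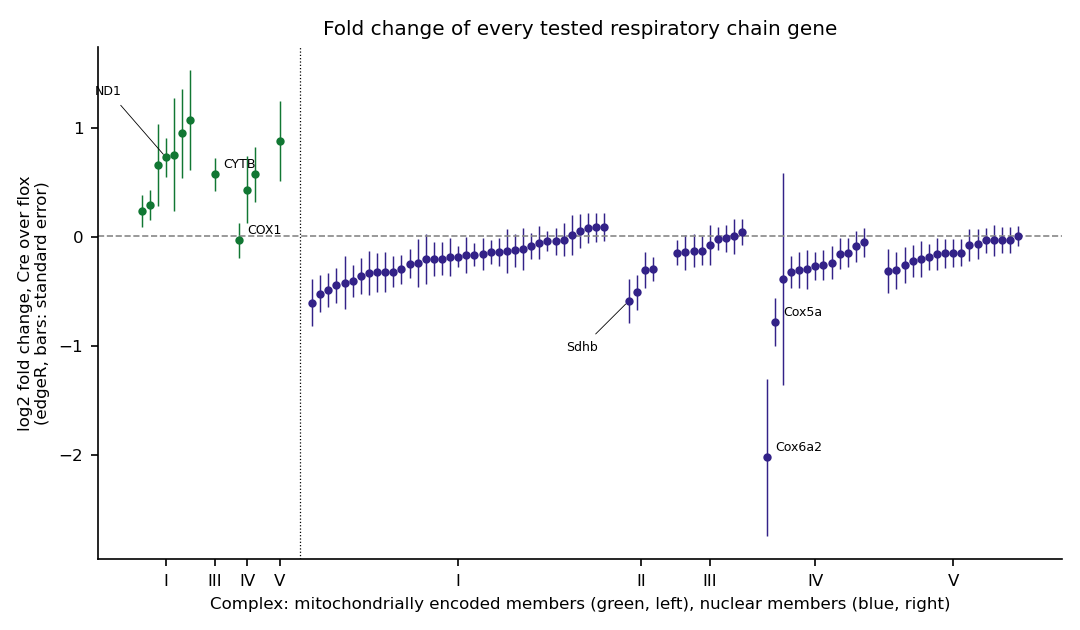
Log2 fold change, Cre over flox, of every tested member (points, edgeR; bars, standard error) by complex, with mitochondrial genes in green on the left, nuclear genes in blue on the right and a dashed line at the median of all genes (0.012). Of the mitochondrial genes 11 of 12 lie above 0, and of the nuclear genes 72 of 80 lie below it.

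As a share of all counts, mitochondrial protein genes made up 0.573%, 0.657% and 0.680% of flox 1, 2 and 3 (0.637% ± 0.056, SD, n = 3). In Cre 1, 2 and 3 they made up 0.868%, 0.965% and 0.675% (0.836% ± 0.148). Cre 3 lay inside the flox range, so the groups overlapped. The mesothelial sum was likewise high in Cre 1 and 2 and not in Cre 3. The cycling-cell sum was also lower in Cre 3 than in Cre 1 and 2, though above flox. The part of either in the mitochondrial values was not tested. Nuclear members took 0.669%, 0.651% and 0.558% in flox and 0.658%, 0.615% and 0.601% in Cre, with near-equal means (0.626% ± 0.060 and 0.625% ± 0.030). Mitochondrial over nuclear counts came to 0.856, 1.01 and 1.22 in flox and 1.32, 1.57 and 1.12 in Cre, where Cre 3 fell below flox 3.

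Measured against COX1 in the same library, where library scaling cancels, 4 of 5 other abundant messages had Cre above flox without overlap and 0 below. Of all other tested genes, 16.1% lay above and 14.9% below in this ratio. ND1 had 29.9%, 28.0% and 35.9% of the COX1 FPKM in flox and 52.5%, 56.8% and 47.4% in Cre. CYTB had 18.9%, 17.3% and 17.7% in flox and 30.7%, 24.9% and 26.2% in Cre. In both genes the lowest Cre library exceeded the highest flox library. ND5 (14.1%, 14.0% and 16.1% against 17.8%, 17.9% and 17.1%) did not overlap either, by a narrower margin. ND4, at 8.79%, 9.01% and 11.0% of COX1 in flox and 12.3%, 11.7% and 11.8% in Cre, also separated the groups. ND2 did not: 15.6%, 17.8% and 31.5% in flox overlapped 29.8%, 46.2% and 25.0% in Cre. With other denominators the groups overlapped: ND1 had 159%, 162% and 203% of the CYTB FPKM in flox and 171%, 228% and 181% in Cre, and ND2 over ND1 overlapped as well. COX1 was the tested mitochondrial gene with a negative log2 fold change, and ND4 and ND5 overlapped between groups in CPM. The ratios to COX1 share that denominator and so are not independent, and a permutation test of 3 against 3 cannot go below p = 0.10. COX1 correspondingly made up 59.6%, 59.8% and 53.9% of mitochondrial counts in flox and 48.1%, 46.1% and 50.8% in Cre.

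**Figure D3:**
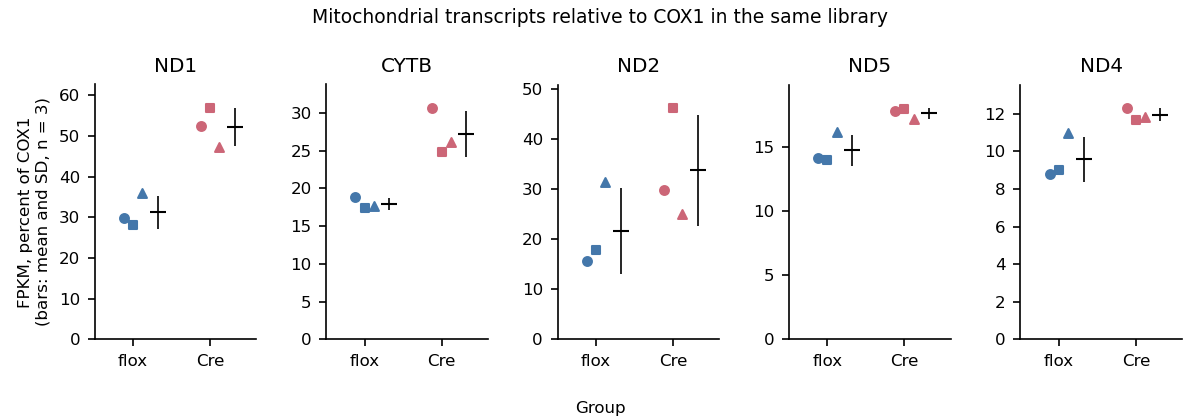
FPKM of 5 mitochondrial genes as percent of COX1 in the same library (points, blue flox and red Cre, circle, square and triangle for replicates 1, 2 and 3; black, mean and SD, n = 3), with each vertical axis starting at 0. ND1, CYTB, ND5 and ND4 separate the groups and ND2 does not.

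Nuclear members had small and mostly negative log2 fold changes, and 0 of 80 tested passed the edgeR threshold (15.3% of all genes did). Cox6b2 and Cox7a1 were removed as too low. By unadjusted edgeR p below 0.05, 10 were lower and 0 higher in Cre, against 18.4% and 16.4% of all genes. Every Cre library lay below every flox library for 9 and above for 0, again less than the background of 20.0% and 19.6%. DESeq2 called 8 of 80 lower (Cox5a, Cox6a2, Ndufb1, Ndufb4, Ndufb8, Ndufs8, Sdhb and Sdhc), a smaller share than the 15.9% it called lower among all genes, and limma-voom called 0. By sign, 72 of 80 were negative, against 49.0% of all genes, with a median of -0.16 (all genes, 0.012). Without flox 1 the median was -0.10 with 57 of 81 negative, and without flox 2 it was -0.085 with 59 of 80 negative. When libraries were scaled by their totals, all genes moved up by about 0.16 (median 0.17) and 40 of 80 nuclear members were negative, so the sign of a small change rests on the scaling. Relative to the median of all genes the nuclear median was -0.17 under either scaling.

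These values moved most with flox 3. The nuclear members' summed CPM was 7210 and 7193 in flox 1 and 2, 5537 in flox 3 and 6138, 5816 and 5790 in Cre, so flox 3 was the lowest of all 6 libraries. Without flox 3, edgeR called 32 of 81 nuclear members lower and 0 higher, in a fit that called 18.8% of 15296 genes lower, and the median was -0.28 with 80 of 81 negative. Leaving out any other single library gave 0. Without flox 1, flox 2, Cre 1 or Cre 2 that says little, since 0 genes of the whole table passed. Without Cre 3, 1369 genes of the whole table passed. The macrophage sum was also lowest among flox libraries in flox 3 (8616 CPM), and the endothelial sum was highest there (4565 CPM). The part of macrophage or endothelial RNA in the nuclear values was not tested. Gene by gene, flox 3 was the lowest library for 49 of 82 nuclear members and for 7 of 13 mitochondrial ones (CYTB, COX3, ATP6, ND3, ND6, ND4L and ATP8). The summed CPM of mitochondrial genes, of whose counts COX1 made up 46.1% to 59.8%, was 6173, 7263 and 6742 in flox and 8097, 9121 and 6503 in Cre. The mitochondrial median stayed above the nuclear one by 0.78 in the reported fit and by 0.61 to 0.96 under the alternatives.

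**Figure D4:**
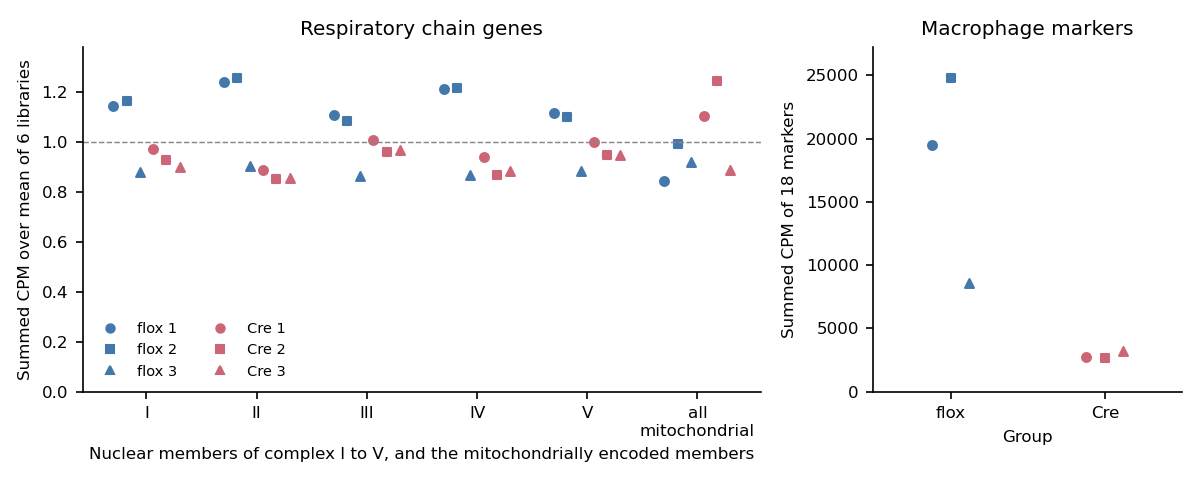
Left, summed CPM of the nuclear members of complexes I to V and of the mitochondrial members, divided by the mean of the 6 libraries (dashed line at 1). Right, summed CPM of 18 macrophage markers (blue flox, red Cre, circle, square and triangle for replicates 1, 2 and 3). In each nuclear complex flox 1 and 2 are highest and flox 3 lies near or below Cre, except that in complex II it lies just above, while the mitochondrial sum is highest in Cre 2.

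Complex II, the succinate dehydrogenase of both the chain and the tricarboxylic acid cycle, had the lowest median of the 5 complexes (-0.41). No member passed the threshold. In 3 of its 4 members (75.0%) every Cre library lay below every flox library, against 20.0% of all genes. Sdhb, its iron-sulfur subunit, had 109.5, 109 and 65.8 CPM in flox and 64.0, 62.1 and 62.8 in Cre. The Cre libraries agreed within 2 CPM and flox 3 stood just above them (-0.59 ± 0.20, edgeR adjusted p = 0.0924). Sdhc, a membrane anchor, had 132, 136 and 92.7 CPM in flox and 88.1, 81.7 and 84.0 in Cre (-0.51 ± 0.16, adjusted p = 0.0758). Sdha, the flavoprotein that oxidises succinate, had 238, 241 and 196 CPM in flox and 184, 184 and 182 in Cre, likewise without overlap (-0.29 ± 0.11, adjusted p = 0.121). Sdhd, the other anchor, overlapped between groups (-0.30 ± 0.17, adjusted p = 0.243).

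Nuclear complex I members had a median of -0.18. In 5 of 37 (13.5%) every Cre library lay below every flox library, a smaller share than the 20.0% of all genes. Ndufs8, an iron-sulfur subunit of the arm that meets the matrix, had 51.1, 48.5 and 35.6 CPM in flox and 33.5, 32.8 and 30.2 in Cre (-0.49 ± 0.16, edgeR adjusted p = 0.0809). Ndufb8, an accessory membrane-arm subunit, had 82.6, 80.6 and 54.5 CPM in flox and 49.9, 49.8 and 52.0 in Cre (-0.52 ± 0.17, adjusted p = 0.0822). In both, flox 3 lay closer to Cre than to flox 1 and 2. The exons of Ndufb8 overlap those of Gm20538 on the same strand, so its reads may be split between them. Ndufb4 and Ndufb7, accessory subunits of the membrane arm, were also without overlap (-0.40 and -0.30, adjusted p 0.103 and 0.162). Ndufv2, an iron-sulfur subunit of the NADH-oxidising tip, gave -0.44 ± 0.16 (adjusted p = 0.0998) and Ndufb1, whose exons overlap Cpsf2 on the opposite strand, -0.60 ± 0.21 (adjusted p = 0.101).

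Complex IV had a median of -0.27. Only 1 of 13 tested nuclear members, Cox5a, had Cre below flox throughout (7.69%, all genes 20.0%). Cox5a, a subunit on the matrix side, had the lowest p of all nuclear members. Its CPM was 147, 148 and 87.8 in flox and 83.9, 66.1 and 73.1 in Cre (-0.78 ± 0.22, edgeR adjusted p = 0.0579), so flox 3 lay within 4 CPM of Cre 1. Cox4i1, the main isoform of a regulatory subunit, had 217, 218 and 158 CPM in flox and 164, 151 and 159.7 in Cre (-0.32 ± 0.15, adjusted p = 0.173). It overlaps Emc8 on the opposite strand. Cox5b, the zinc-binding subunit, gave -0.27 ± 0.13 (adjusted p = 0.189).

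**Figure D5:**
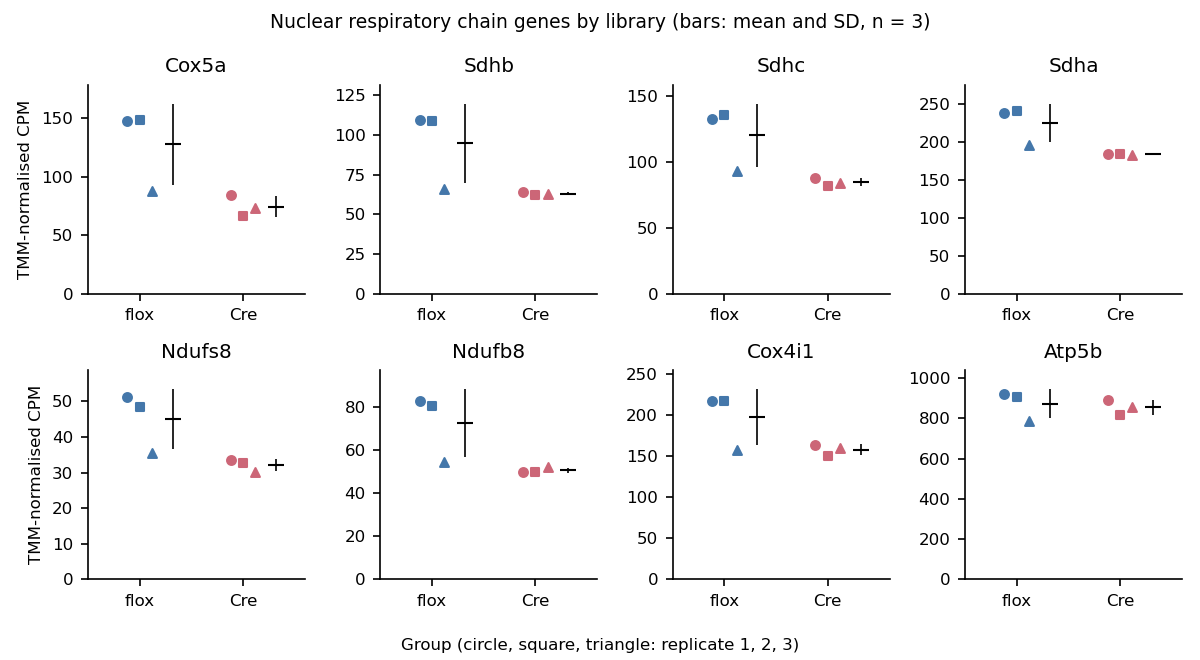
TMM-normalised CPM of 8 nuclear members by library (points, blue flox and red Cre, circle, square and triangle for replicates 1, 2 and 3; black, mean and SD, n = 3), with each vertical axis starting at 0. Flox 3 lies near the Cre libraries in every panel except that of Atp5b, where all libraries lie between 789 and 923 CPM.

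Tissue-specific isoforms of complex IV were present only at trace counts. Cox6a2, the muscle isoform of Cox6a1, had 86, 87 and 25 counts in flox and 8, 31 and 15 in Cre (-2.02 ± 0.72, edgeR adjusted p = 0.101). Cre 2 exceeded flox 3, and the FPKM of Cox6a2 was 1.22% ± 0.59 of that of Cox6a1 in flox and 0.375% ± 0.245 in Cre (SD, n = 3). Its exons overlap Itgad, a gene named here only for that overlap, which had 3, 5 and 1 counts in flox and 1, 0 and 0 in Cre. Cox4i2, the lung isoform of Cox4i1, had 2 to 25 counts in flox and 4 to 14 in Cre, or 0.161% and 0.162% of the Cox4i1 FPKM on average. Cox7a1, the muscle and heart isoform, had 4, 25 and 5 counts in flox and 11, 8 and 1 in Cre. Cox6b2, the testis isoform, had 1, 3 and 11 counts in flox and 2, 7 and 2 in Cre. The common partners Cox6a1 (-0.26), Cox6b1 (-0.30) and Cox7a2 (-0.09) did not pass. Cox7a2l (-0.14) and Cox8a (-0.30) did not pass either (edgeR adjusted p 0.232 to 0.698 for all of these). No row of the count table had the symbol Cox8b or Cox8c.

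Complexes III and V showed the smallest differences. No member of either had groups without overlap (0 of 9 and 0 of 17, all genes 39.6%). The medians were -0.076 and -0.15. The 4 complex III members of lowest p were Uqcrc1 (-0.15), a core subunit, and the small subunits Uqcrh (-0.13), Uqcrb (-0.14) and Uqcr10 (-0.13), with edgeR adjusted p of 0.403 to 0.591. Uqcrc1 had 158, 154 and 127 CPM in flox and 129, 130.4 and 137 in Cre, so flox 3 was the lowest library. For complex V these were Atp5e (-0.31), Atp5j2 (-0.26), Atp5k (-0.32) and Atp5mpl (-0.18), with adjusted p of 0.238 to 0.324. Atp5b, the catalytic beta subunit, was named for having the highest FPKM of all nuclear members (mean 459.7 over 6 libraries). Its CPM was 923, 905 and 789 in flox and 892, 816 and 859 in Cre (-0.03 ± 0.12, adjusted p = 0.888). The genes of the rotor c subunit, Atp5g1, Atp5g2 and Atp5g3, which encode one mature protein, gave -0.07, -0.03 and -0.06, and their FPKM stood in similar proportion in both groups (Atp5g1 45.2% ± 2.4 of Atp5g3 in flox and 45.1% ± 4.3 in Cre).

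Letters read by known regulators of respiratory chain genes were looked up in the promoters of the nuclear members. In windows of 300 bases (250 before to 50 after the start, RefSeq, GRCm38.p6) on either strand, GCANGCG, the centre of the NRF1 motif, stood in 32 of 67 members with a window (47.8%) and in 18.6% of 27025 genes. CCGGAAG, read by ETS factors such as GABP, stood in 17 of 67 (25.4%, all genes 9.93%) and AAGATGG, the start of a YY1 motif, in 11 of 67 (16.4%, all genes 7.28%). No pair of these strings is contained in another, though they can share bases. The median log2 fold change with and without the NRF1 letters was -0.15 and -0.24. For the ETS letters the medians were -0.26 and -0.15, and for YY1 -0.16 and -0.15. The 27025 genes include genes not tested here, and the members were not compared with tested genes alone. A match is a run of letters, not a site shown to be bound.

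Genes that build and feed the chain were read from 7 lists in the same edgeR fit. Of 52 tested assembly factors, 3 fell and 1 rose (median -0.18). Coa5, a complex IV assembly factor, had 257, 274 and 174 CPM in flox and 124, 108 and 129 in Cre (-0.97 ± 0.19, adjusted p = 0.0267). Coa4, a complex IV factor with twin CX9C motifs, gave -1.28 ± 0.24 (adjusted p = 0.0262), and Surf1, needed for complex IV assembly and overlapping Surf2, -0.67 ± 0.17 (adjusted p = 0.0458). Ttc19, a complex III factor overlapping Ncor1, rose (0.54 ± 0.13, adjusted p = 0.0429). Of 39 genes for mitochondrial DNA and RNA upkeep, 1 rose and 0 fell (median -0.002). It was Ptcd3, a protein of the mitochondrial ribosome, with 37.5, 33.8 and 36.8 CPM in flox and 59.5, 59.4 and 49.4 in Cre (0.64 ± 0.12, adjusted p = 0.0250). Tfam and Polrmt, the packaging factor and RNA polymerase of mitochondrial DNA, were looked up for their role after values were seen and did not pass (0.25, adjusted p = 0.132, and -0.04, adjusted p = 0.813).

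Of 18 tested nuclear regulators, 2 passed as lower and 0 as higher, and 10 log2 fold changes were positive (median 0.014). Every Cre library lay above every flox library for 5 (27.8%) and below for 3 (16.7%), against 19.6% and 20.0% of all genes. Esrra, the estrogen-related receptor alpha, which activates respiratory chain genes, had 70.0, 72.3 and 47.9 CPM in flox and 38.3, 33.7 and 42.3 in Cre (-0.74 ± 0.18, edgeR adjusted p = 0.0437), and it overlaps Trmt112. Nrip1, a corepressor of such receptors, also fell (-0.74 ± 0.12, adjusted p = 0.0241). Among 25 electron carriers and ubiquinone genes 3 fell and 0 rose (median -0.07). Ucp2, an inner-membrane carrier abundant in macrophages, had 482, 675 and 173 CPM in flox and 86.3, 76.3 and 59.95 in Cre (-2.58 ± 0.48, adjusted p = 0.0255), and it overlaps Dnajb13. Coq8b (-0.58 ± 0.14, adjusted p = 0.0396) and Coq5 (-0.57 ± 0.15, adjusted p = 0.0478), of ubiquinone synthesis, were the others.

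In the tricarboxylic acid cycle list 2 of 21 genes rose and 0 fell (median 0.006). They were Suclg2, a succinyl-CoA ligase subunit (0.54 ± 0.14, edgeR adjusted p = 0.0436), and Idh3a, of NAD-dependent isocitrate dehydrogenase (0.33 ± 0.09, adjusted p = 0.0490). Among 24 carriers and outer-membrane genes 1 rose and 1 fell (median -0.007). Slc25a4, an ADP/ATP exchanger, had 115, 94.2 and 84.7 CPM in flox and 191, 178 and 128 in Cre (0.76 ± 0.19, adjusted p = 0.0436), and Slc25a10, the dicarboxylate carrier, gave -0.45 ± 0.11 (adjusted p = 0.0433). None of 4 tested subunits with names outside the chosen pattern passed (median -0.30). The background of calls was 6.35% higher and 8.94% lower. Only the tricarboxylic acid cycle list, the regulators and the carrier list of Ucp2 had a larger called share in either direction. Their counts are 2 or 3 genes. By groups without overlap, list shares reached 28.6% with Cre above flox (tricarboxylic acid cycle) and 30.8% below (assembly factors). All genes had 19.6% above and 20.0% below. All 14 named calls in these lists, like that of ND1, were lost when flox 1, flox 2, Cre 1 or Cre 2 was left out, and 10 of them without Cre 3. Limma-voom did not call 9 of the 14, and library totals did not call 5 (Coq5, Coq8b, Esrra, Slc25a10 and Surf1).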

How the data were processed

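The authors deposited a table of raw read counts per gene symbol and a table of FPKM values, 1 column for each of 6 libraries. Per the labels' protocols, libraries were made from total RNA (1.3 ug) with a SMARTER mRNA kit. GRCm38, mm10 and hg38 are listed without a role in the submitters' processing notes. The sources used here do not give the aligner, the counter, the annotation or whether strand was read. Groups and replicate numbers were taken from titles. No replicate pair agreed within sampling noise (lowest chi-square per gene within a group 31.7).

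Counts of all genes were fitted with edgeR 4.0.16 in R 4.3.3: filterByExpr (minimum count 10, minimum total 15) kept 14795 genes and removed 8171, TMM factors were 0.905 to 1.07, and the two-sided quasi-likelihood F-test had no covariate, with Benjamini-Hochberg adjusted p over all tested genes and a threshold of 0.05. Standard errors were obtained from the log2 fold change and its F statistic (size over square root). Members, gene lists, cell type markers and alternatives were chosen with earlier results of these data known. Named genes were all mitochondrial members, the 4 nuclear members of lowest p per complex with any past the threshold, the isoform genes, and up to 4 genes past the threshold in each list; members without overlap between groups (1 is not reported here) and genes marked as such in the text were named besides. The alternatives were RLE factors, library totals, library sizes without mitochondrial genes, DESeq2 1.42.0, limma 3.58.1 (voom, and trend on log2(FPKM + 1) and log2(FPKM + 0.1)), other filters, a replicate block and each library left out. The scripts were tested on simulated data. Transcripts, positions and overlaps are from GENCODE M21, in which all 95 members were found, and promoters from RefSeq; the read length is not known, and 50 bases is a chosen window.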

Additional observations from a re-analysis of the deposited data

How the results depend on the processing

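Depth did not limit the abundant members, but ATP8, Cox4i2, Cox6b2 and Cox7a1 had at most 25 counts in any library. The number of nuclear members past the threshold (0) became 8 in DESeq2 and 0 to 32 when 1 library was left out, the 32 without flox 3. For mitochondrial members (1) it became 2 with library totals, DESeq2, no count filter or at least 1 CPM in 3 libraries, 0 in limma-voom, 3 on log2(FPKM + 1) and log2(FPKM + 0.1), 4 with a mean FPKM of at least 1, and 0 to 2 with 1 library left out. Over all genes (2263) it became 4334 in DESeq2, 1404 in limma-voom and 0 to 5329 with 1 library left out, being 0 without flox 1, flox 2, Cre 1 or Cre 2, where 3562 to 3978 genes had an unadjusted edgeR p below 0.05, 1369 without Cre 3 and 5329 without flox 3. These fits have fewer samples, and the cause was not tested further.

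Same-numbered libraries did not deviate together (r -0.033, -0.105 and -0.056 across genes), so they share only a number. With the replicate number as a block, edgeR called 0 nuclear members, 0 mitochondrial members and 0 genes of the whole table (4296 at an unadjusted p below 0.05). The medians were -0.15 for nuclear and 0.60 for mitochondrial members, and ND1 had an adjusted p of 0.120.

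The mitochondrial median stayed positive in every fit run. The nuclear median turned to 0.0039 with library totals, 0.0092 on log2(FPKM + 1), 0.013 on log2(FPKM + 0.1) and 0.012 with a mean FPKM of at least 1, settings in which the median of all genes moved up too (0.17, 0.10, 0.16 and 0.14). As shares of summed FPKM, mitochondrial members were 1.23% in flox and 1.76% in Cre and nuclear members 1.63% and 1.68%. Of 80 nuclear members, 32 turned positive with library totals, 34 on log2(FPKM + 1), 35 on log2(FPKM + 0.1), 16 without flox 1 and 13 without flox 2. Among the genes named in the text, none of those that turned had passed the threshold. With library totals the named ones were COX1 0.13, Uqcrc1 0.017, Uqcrh 0.038, Uqcrb 0.028, Uqcr10 0.041, Cox7a2 0.078, Cox7a2l 0.021, Atp5g1 0.093, Atp5g2 0.14 and Atp5g3 0.10. On log2(FPKM + 1), with or without the mean filter, the named ones were COX1 0.12, Uqcrc1 0.019, Uqcrh 0.043, Uqcrb 0.032, Uqcr10 0.046, Cox7a2 0.079, Cox7a2l 0.024, Atp5g1 0.096, Atp5g2 0.14 and Atp5g3 0.10. On log2(FPKM + 0.1) they were the same within 0.002, with Uqcr10 0.047, Cox7a2 0.080, Cox7a2l 0.025 and Atp5g1 0.098, beside Cox4i2 0.10. Cox4i2 was 0.12 in limma-voom and 0.051 under the replicate block. With 1 library left out, the ranges of named genes that crossed 0 were COX1 -0.083 to 0.081, Uqcr10 -0.25 to 0.033, Cox4i2 -0.90 to 0.94, Cox7a2 -0.21 to 0.029, Atp5g1 -0.20 to 0.026, Atp5g2 -0.14 to 0.091 and Atp5g3 -0.17 to 0.035.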
